A study of Mus musculus with 47 samples.

Results

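The levels of 8 secreted signaling genes of muscle cells were followed through 16 groups of cultured C2C12 libraries. They are the chemokines Ccl2, Ccl7, Cxcl1, Cxcl5 and Cxcl12 and the cytokines Il6, Lif and Csf1. The members were chosen by gene symbol, as chemokine and cytokine genes that muscle cells make, and they are 8 of the 45706 genes in the deposited tables. C2C12 is an immortalized mouse myoblast line that proliferates in serum-rich growth medium and fuses into multinucleated myotubes after a change to low-serum medium. Poly(A) RNA was sequenced from 47 libraries, 3 biological replicates in each group except the myoblast-enriched dox group, which had 2.

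All lines kept the endogenous MyoD1 gene and carried in addition 1 doxycycline-inducible transgene, which was Halo-tagged MyoD1 in the iMyoD1 line, Cdh23 in the iCdh23 line and Mcam in the iMcam line. The transgenes were placed by PiggyBac transposition under the TRE3G promoter, which responds to doxycycline (dox). The iMyoD1 line was polyclonal. Cells received 1 µg/mL dox or vehicle (no dox). The iMyoD1 groups were undifferentiated cells (0 h) treated for 24 h in growth medium and cells differentiated for 24, 48 or 120 h with dox given from the start of differentiation. At 120 h further cultures were trypsinized and passed over a 40 µm filter, whose flow-through was the myoblast-enriched and whose retained material the myotube-enriched fraction. The iCdh23 and iMcam lines were taken at 48 h. No group used here is a dox-treated line without a transgene, so dox itself and the transgene cannot be told apart. The 0 h and 24 h libraries stood in 1 table, the 48 h and 120 h whole cultures in another, and the fractions and both adhesion lines in the third. Because the labels also give the 35 libraries other than 0 h and 24 h a batch tag that the others lack, time and batch cannot be told apart between 24 h and 48 h.

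Chemokines are small secreted proteins that direct the migration of cells through G protein-coupled receptors. Ccl2 and Ccl7 draw monocytes through Ccr2 and related receptors, Cxcl1 and Cxcl5 draw neutrophils through Cxcr2, and Cxcl12 acts through Cxcr4 and is bound by the scavenging receptor Ackr3. Il6 and Lif belong to the cytokines that signal through the shared receptor subunit Il6st (gp130) to Jak kinases and Stat3, and Csf1 sustains macrophages through Csf1r. In muscle these factors are known as signals that myoblasts and contracting fibers send to each other and to immune cells during growth and repair.

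Ccl2 (ENSMUSG00000035385, chromosome 11, 82035571 to 82037453) and Ccl7 (ENSMUSG00000035373, chromosome 11, 82045712 to 82047525) lie next to each other on the plus strand of GRCm38, 8258 bp apart. Cxcl5 (ENSMUSG00000029371, chromosome 5, 90759360 to 90761624) and Cxcl1 (ENSMUSG00000029380, chromosome 5, 90891241 to 90893115) lie on the plus strand 129616 bp apart. Il6 (ENSMUSG00000025746, chromosome 5, 30013114 to 30019981), Lif (ENSMUSG00000034394, chromosome 11, 4257557 to 4272514) and Cxcl12 (ENSMUSG00000061353, chromosome 6, 117168535 to 117181367) are also on the plus strand, and Csf1 (ENSMUSG00000014599, chromosome 3, 107741048 to 107760469) is on the minus strand. The gene model Gm17268 covers all 1883 bp of Ccl2 on the opposite strand and had 0 counts in every library.

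The 250 bases before the RefSeq start site (GRCm38.p6) could be read for 5 of the 8 members. Those of Il6, Lif, Cxcl1 and Csf1 are shown because Il6 and Lif were called lower with dox in the same 4 comparisons, while Cxcl1 was higher in 1 of these and Csf1 was not called in 2 of them. Each is given 5′ to 3′ on the strand of its gene, and capitals mark the matches to the motifs named after the sequences.
Il6, chr5:30012864-30013113, plus strand: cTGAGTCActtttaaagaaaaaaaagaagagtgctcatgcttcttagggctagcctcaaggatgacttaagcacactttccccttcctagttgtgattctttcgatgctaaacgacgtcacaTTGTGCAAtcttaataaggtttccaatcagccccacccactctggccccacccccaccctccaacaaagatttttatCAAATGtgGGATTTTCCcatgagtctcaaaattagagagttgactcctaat
Lif, chr11:4257318-4257567, plus strand: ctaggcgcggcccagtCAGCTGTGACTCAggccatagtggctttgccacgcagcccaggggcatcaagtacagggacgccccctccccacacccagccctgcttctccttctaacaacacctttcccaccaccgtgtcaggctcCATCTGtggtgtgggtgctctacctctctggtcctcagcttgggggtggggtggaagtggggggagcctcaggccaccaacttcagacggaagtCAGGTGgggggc
Cxcl1, chr5:90890995-90891244, plus strand: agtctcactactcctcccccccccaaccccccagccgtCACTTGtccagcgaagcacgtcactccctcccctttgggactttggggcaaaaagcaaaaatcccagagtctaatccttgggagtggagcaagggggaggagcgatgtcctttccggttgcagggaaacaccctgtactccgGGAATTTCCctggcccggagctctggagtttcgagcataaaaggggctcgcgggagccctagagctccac
Csf1, chr3:107760470-107760719, minus strand: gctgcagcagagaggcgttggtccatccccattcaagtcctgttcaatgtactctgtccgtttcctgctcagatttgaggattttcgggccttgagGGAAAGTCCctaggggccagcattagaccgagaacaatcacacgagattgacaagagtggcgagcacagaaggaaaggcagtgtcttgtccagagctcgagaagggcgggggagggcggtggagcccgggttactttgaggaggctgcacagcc

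Each motif was searched on both strands, and positions count back from the start site. The E-box CANNTG, the DNA element that MyoD1 and related factors bind, matched in 3 of the 5 windows, against 66.2% of 32851 promoter windows of the same length. Lif held 3 matches, CAGCTG from -234 to -229, CATCTG from -106 to -101 and CAGGTG from -12 to -7, while Il6 held CAAATG from -51 to -46 and Cxcl1 CACTTG from -212 to -207. The form CAGCTG, which is contained in CANNTG, stood only in Lif among the 5 and in 13.0% of all windows. The AP-1 motif TGANTCA was found in Il6 (TGAGTCA, -249 to -243) and in Lif (TGACTCA, -228 to -222, directly after CAGCTG), and in 6.75% of all windows. A kappa-B-like motif, GGANTTTCC, was found in 1.07% of all windows and in 3 of the 5 here, as GGAATTTCC in Cxcl1 (-70 to -62), as GGATTTTCC in Il6 (-43 to -35) and as GGAAAGTCC on the opposite reading in Csf1 (-154 to -146). The C/EBP-like TTGCNNAA matched in Il6 alone (-128 to -121) and in 9.56% of all windows, and the STAT-like TTCNNNGAA (7.02% of windows) matched in none of the 5. The Cxcl12 window (chr6:117168285-117168534) held no match to any of these motifs, which says only that these letters are not in it.

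Total counts were 15066338 to 50950674 per library with a median of 22837926. Levels are given as CPM, a gene's share of the counts of its library put on a fixed total, after scaling by TMM factors over all 47 libraries. Myod1 did not check the dox label of the iMyoD1 libraries: its level was 174 to 185 CPM without and 181 to 202 CPM with dox at 0 h, 136 to 142 and 110 to 123 CPM at 24 h, 384 to 391 and 294 to 319 CPM at 48 h, and 228 to 302 and 80.9 to 96.7 CPM in whole cultures at 120 h, so these libraries are called here by their labels. Mcam, which is not the induced gene in this line and was looked at after its values were seen, did separate the groups of the whole cultures, at 7.69 to 9.44 CPM without and 18.1 to 24.3 CPM with dox at 0 h, 2.31 to 3.03 and 15.5 to 17.6 CPM at 24 h, 12.3 to 13.2 and 22.3 to 24.9 CPM at 48 h, and 1.02 to 2.50 and 32.2 to 34.4 CPM at 120 h. It was 2.28 to 7.68 and 23.2 to 26.4 CPM in the myoblast-enriched and, with overlap, 3.07 to 16.6 and 1.27 to 15 CPM in the myotube-enriched fraction. In iMcam libraries Mcam was 17 to 19.5 CPM without and 69.1 to 74.5 CPM with dox, and in iCdh23 libraries Cdh23 was 343 to 444 and 416 to 566 CPM, ranges that overlap, while it was 5.53 to 8.81 CPM in iMcam libraries without dox. The Cdh23 level thus did not separate the iCdh23 dox groups, whereas Mcam was 4.70 to 7.55 CPM without and 45.7 to 54.5 CPM with dox in them. Markers of 8 myotube genes summed to 1.52 to 2.60 CPM at 0 h and 14420 to 15760 CPM at 48 h without dox. Of 8 leukocyte, 5 endothelial and 4 adipocyte markers, 6, 5 and 3 averaged under 1 CPM, and the lists summed to at most 17.7, 1.44 and 19.0 CPM. In bulk RNA, fewer cells that make a transcript and less of it per cell cannot be told apart.

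A difference is called here when the edgeR quasi-likelihood test gave an adjusted p under 0.05 over all genes tested and the fold change exceeded 2. Changes are given as log2 fold changes with their standard errors (SE). Per kilobase of transcript, the only scale on which levels of different genes are compared, Cxcl12 and Csf1 were the 2 highest of the 8 members in all 16 groups (in 13 when the longest transcript set the length), at 7.63 to 91.7 and 21.4 to 115 CPM per kb over the group means. Cxcl1 and Cxcl5 ranged over 0.454 to 30.4 and 0.318 to 39.1 CPM per kb. Il6, at 0.0477 to 2.01 CPM per kb, was the lowest in 12 groups.

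**Figure D1:**
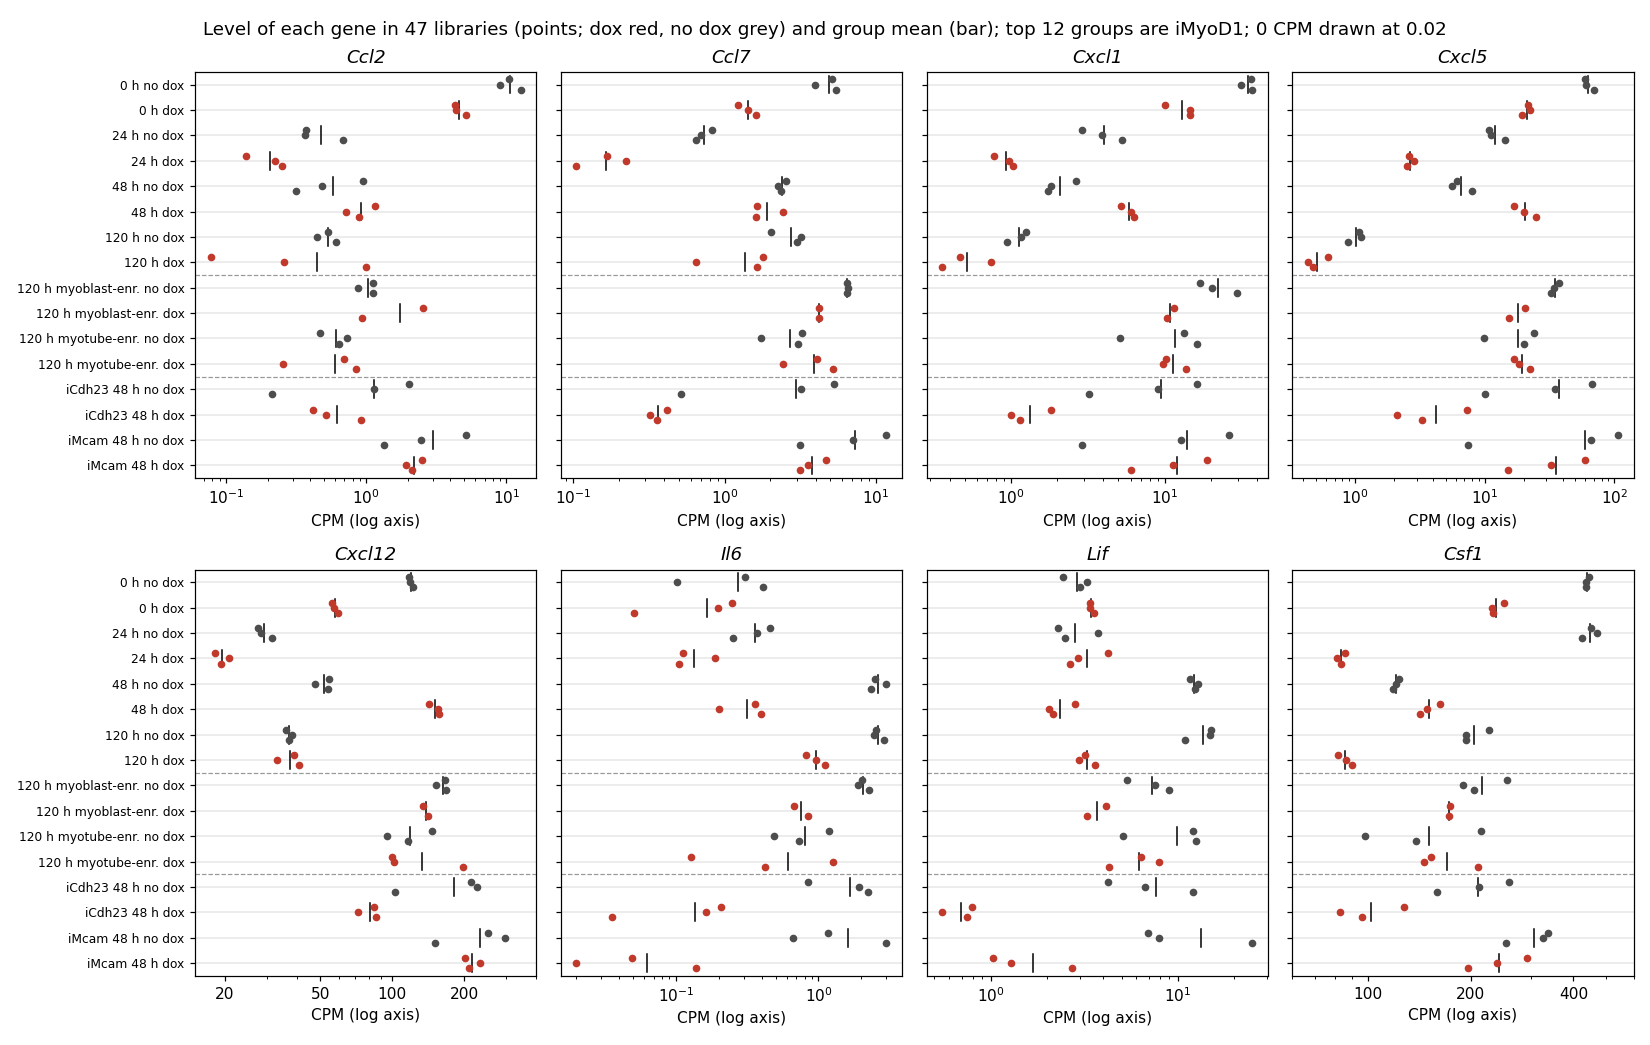
Level of each of the 8 genes in each of 47 libraries (points, CPM on a log axis, dox red and no dox gray) by group, with bars at group means. Cxcl5 spans the widest range, from a mean of 62.9 CPM at 0 h without dox to 0.511 CPM at 120 h with dox.

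Undifferentiated cells in growth medium without dox had the highest mean levels of Ccl2, Cxcl1 and Cxcl5 of all 16 groups, an order that crosses tables. For Cxcl5 these libraries (mean 62.9 CPM) overlapped those of the next group, iMcam without dox (59.96 CPM). Dox-treated cells at 0 h had less of every chemokine. The Ccl2 level, 10.4, 9.08 and 12.7 CPM without dox, was 4.31, 4.39 and 5.13 CPM with it. For Ccl7 the libraries held 5.17, 3.98 and 5.50 CPM without and 1.23, 1.43 and 1.63 CPM with dox. Every library with dox was below every library without it. Ccl2 fell by 1.21 on the log2 scale (SE 0.155, edgeR adjusted p = 3.86e-05). Ccl7 fell by 1.77 (SE 0.232, edgeR adjusted p = 4.89e-05).

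The neutrophil chemokines and Cxcl12 moved the same way at 0 h. Cxcl1 measured 36.4, 31.4 and 37.1 CPM without dox and 10.1, 14.5 and 14.5 CPM with dox. The Cxcl5 libraries gave 59.2, 60.3 and 69.3 CPM against 21.6, 22.4 and 19.4 CPM, and those of Cxcl12 117.7, 118.6 and 121.9 CPM against 56.3, 57.3 and 59.2 CPM. The groups did not overlap for any of them, as for 49.3% of all genes tested at 0 h. Cxcl1 fell by 1.42 (SE 0.121, edgeR adjusted p = 9.59e-07), Cxcl5 by 1.57 (SE 0.0795, adjusted p = 7.38e-09) and Cxcl12 by 1.04 (SE 0.0555, adjusted p = 1.15e-08). Scaled by library size alone, the Cxcl12 difference was -0.94 and no longer passed the 2-fold limit.

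Of the cytokines at 0 h, Csf1 was 443, 436 and 437 CPM without dox and 250.2, 231 and 232 CPM with dox, a 1.83-fold difference in non-overlapping groups that passed the p threshold (edgeR adjusted p = 2.96e-08) but not the 2-fold limit. Lif was 2.43, 3.26 and 3.00 CPM without and 3.40, 3.40 and 3.56 CPM with dox, with every dox library above every no dox library and a log2 fold change of 0.25 (SE 0.205, edgeR adjusted p = 0.355). Il6 lay at 0.102 to 0.407 CPM without and 0.0508 to 0.246 CPM with dox and had too few counts to be tested. Of the 7 members tested, 5 were called lower and 0 higher, where 1.36% and 2.91% of the 13550 genes tested were called lower and higher. Their median log2 fold change was -1.21, and that of all genes 0.000394. The sum of the 8 myotube markers was 4.68 to 5.64 CPM with dox at this time, and that of 8 immediate-early genes, which respond to stress and handling, was 678.7 to 715.1 CPM without and 477.5 to 514.5 CPM with dox. Of the former 2 of 3 tested were called higher, and of the latter 1 was called higher and 1 lower. Of 4 myoblast identity markers 1 was called higher, with sums of 602.2 to 622.1 CPM without and 740.5 to 772.4 CPM with dox. Their part in these results was not tested.

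After 24 h in differentiation medium, dox again went with less of 5 members. Csf1 was one of them, at 449.9, 470.5 and 424 CPM without dox and 85.3, 80.9 and 83.5 CPM with dox. Its dox libraries lay within 5 CPM of each other and far below the other group. Csf1 fell by 2.40 (SE 0.0601, edgeR adjusted p = 9.2e-11), which is 5.28-fold.

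Cxcl5 read 10.8, 11.1 and 14.3 CPM without and 2.62, 2.88 and 2.54 CPM with dox at 24 h. Cxcl1 read 2.91, 3.94 and 5.28 CPM without and 0.781, 0.972 and 1.03 CPM with dox. Both pairs of groups were apart, as for 67.5% of all genes tested at 24 h, and Cxcl5 fell by 2.15 (SE 0.133, edgeR adjusted p = 5.5e-08) and Cxcl1 by 2.09 (SE 0.241, edgeR adjusted p = 1.15e-05). Cxcl12, at 27.6, 28.3 and 31.4 CPM without and 18.2, 20.8 and 19.3 CPM with dox, differed by -0.56 (SE 0.0752, edgeR adjusted p = 4.21e-05), short of the 2-fold limit.

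The monocyte chemokines were scarce at 24 h. Ccl7 held 0.830, 0.699 and 0.651 CPM without and 0.167, 0.224 and 0.105 CPM with dox and fell by 2.15 (SE 0.427, edgeR adjusted p = 0.000846). Ccl2 held 0.374, 0.368 and 0.687 CPM without and 0.139, 0.224 and 0.252 CPM with dox, and its call was close to the threshold (-1.17, SE 0.47, edgeR adjusted p = 0.0469). That call was lost with DESeq2 (adjusted p = 0.102) and when dox replicate 1, 2 or 3 or no dox replicate 2 or 3 was left out, with values from -1.38 to -0.80. Lif was 2.28, 3.72 and 2.49 CPM without and 4.21, 2.92 and 2.67 CPM with dox, in overlapping groups, at a log2 fold change of 0.23 (SE 0.226, edgeR adjusted p = 0.403). Il6, untested for low counts, lay at 0.253 to 0.457 CPM without and 0.105 to 0.187 CPM with dox. The calls were 5 lower and 0 higher of 7 tested, beside 5.13% lower and 8.02% higher of 14078 genes, with a median of -2.09 over the members and -0.00243 over all genes. Immediate-early genes summed to 615.2 to 638.6 CPM without and 364.3 to 373.9 CPM with dox, with 1 of 8 called higher and 2 lower, and the 8 myotube markers to 14.2 to 16 and 13.6 to 15.2 CPM, with no call. Of 3 tested leukocyte markers 1 was called higher, and of 4 myoblast identity markers 1 was called higher and 1 lower. The part of these markers in the results was not tested.

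Between 0 h and 24 h the dox effect itself differed for Csf1, by -1.57 on the log2 scale (SE 0.0751, edgeR interaction test, adjusted p = 1.4e-10). This was the 1 call among 7 members tested, beside 2.64% of 14448 genes called lower and 2.82% higher. The differences for Cxcl5 (-0.64, SE 0.156, edgeR adjusted p = 0.00413) and Cxcl12 (0.44, SE 0.0878, edgeR adjusted p = 0.000916) passed the p threshold without reaching 2-fold. Those for Cxcl1 (-0.72), Ccl7 (-0.43) and Lif (-0.07) had edgeR adjusted p-values of 0.0574, 0.465 and 0.882, that for Ccl2 was near 0 (adjusted p = 0.993), and Il6 was not tested. In the same comparison 2 of 7 tested myotube markers, 1 of 4 myoblast identity markers and 2 of 8 immediate-early genes were called lower, and 1 of 3 tested leukocyte markers and 1 immediate-early gene higher. The part of these markers was not tested.

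At 48 h the members split. The 3 CXC chemokines were higher with dox, whereas Il6 and Lif were lower. Cxcl12 was 54.5, 47.6 and 54.1 CPM without and 141.9, 155.3 and 156.9 CPM with dox. Cxcl5 was 6.17, 5.63 and 8.04 CPM without and 16.98, 20.0 and 24.8 CPM with dox, and Cxcl1 was 2.67, 1.82 and 1.75 CPM without and 5.22, 6.04 and 6.29 CPM with dox. In each case the lowest dox library was above the highest no dox library, and 63.9% of all genes tested at 48 h had groups that did not overlap. Cxcl12 rose 2.9-fold (log2 1.53, SE 0.0746, edgeR adjusted p = 7.87e-08), Cxcl5 3.06-fold (1.61, SE 0.168, adjusted p = 1.54e-05) and Cxcl1 2.81-fold (1.49, SE 0.195, adjusted p = 8.4e-05).

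Il6 at 48 h was 2.49, 3.00 and 2.34 CPM without dox and 0.359, 0.199 and 0.393 CPM with dox. Lif was 11.6, 12.8 and 12.4 CPM without and 2.83, 2.05 and 2.16 CPM with dox. The 2 groups were well apart for both genes. Il6 fell 8.57-fold (log2 -3.10, SE 0.322, edgeR adjusted p = 1.53e-05) and Lif 5.21-fold (-2.38, SE 0.151, edgeR adjusted p = 4.15e-07).

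The remaining members gave no call at 48 h. Csf1 was 123.3, 121.1 and 118.5 CPM without and 162.6, 148.4 and 141.5 CPM with dox, a difference of 0.31 (SE 0.0668, edgeR adjusted p = 0.00223) under 2-fold. Ccl7 overlapped between the groups (2.55, 2.25 and 2.38 CPM against 1.65, 2.45 and 1.62 CPM, log2 fold change -0.31, SE 0.233, edgeR adjusted p = 0.275). Ccl2 also overlapped (0.949, 0.482 and 0.314 CPM against 1.15, 0.718 and 0.885 CPM, 0.69, SE 0.413, edgeR adjusted p = 0.178), and without no dox replicate 1 it came to 1.20 with an adjusted p of 0.0476. The counts were 3 higher and 2 lower of 8, beside 5.93% and 8.46% of 13871 genes, and the median of 0.502 over the members stood beside 0.011 over all genes. The 8 myotube markers summed to 14420 to 15760 CPM without and 5872 to 5957 CPM with dox, with 7 of the 8 called lower, and 4 of 4 proliferation markers were also called lower. Immediate-early genes summed to 1139 to 1213 CPM and 764.1 to 813.8 CPM, with 3 of 8 called lower, and 1 of 3 tested leukocyte markers was called higher. The part of these shifts in the results was not tested.

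**Figure D2:**
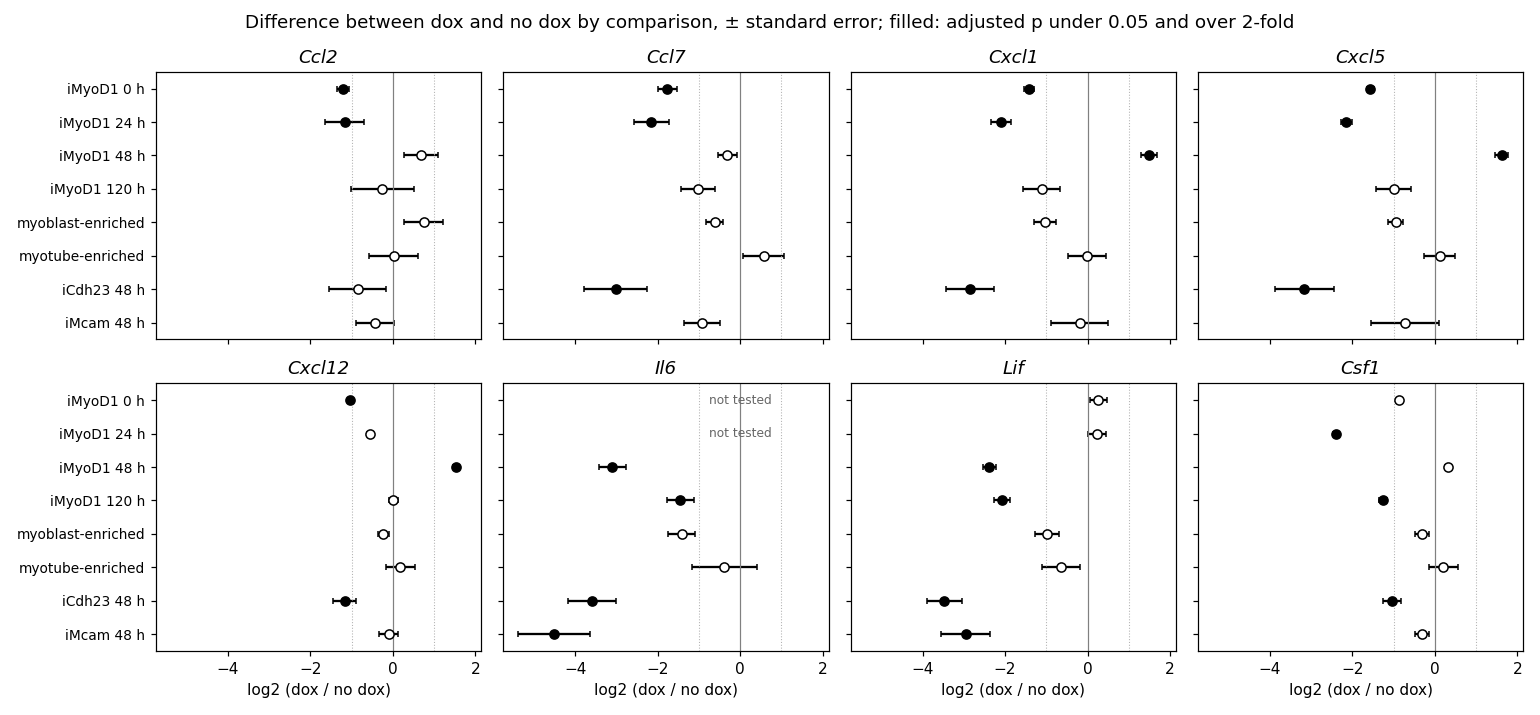
Log2 fold change of each gene with dox against no dox, with its standard error, in each of the 8 dox comparisons. Filled points passed the call, 0 on the axis is no difference and dotted lines mark 2-fold. At 48 h Cxcl1, Cxcl5 and Cxcl12 lie at 1.49, 1.61 and 1.53 while Il6 and Lif lie at -3.10 and -2.38. The Il6 point of iMcam is a fitted value for a dox group with at most 3 counts per library and is no bound.

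In whole cultures at 120 h the cytokines were lower with dox. Lif was 15.1, 14.9 and 10.9 CPM without and 3.184, 2.95 and 3.62 CPM with dox. Il6 was 2.53, 2.46 and 2.87 CPM without and 0.815, 0.956 and 1.11 CPM with dox, and Csf1 was 226.6, 193.8 and 194.3 CPM without and 81.4, 85.9 and 89.6 CPM with dox. None of the 3 overlapped, as 55.3% of all genes tested at 120 h did not. Lif fell 4.21-fold (log2 -2.07, SE 0.198, edgeR adjusted p = 4.43e-05), Il6 2.73-fold (-1.45, SE 0.319, adjusted p = 0.0052) and Csf1 2.41-fold (-1.27, SE 0.0934, adjusted p = 9.47e-06).

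No chemokine was called at 120 h in the fit of the compared groups. Cxcl5 had 1.07, 1.12 and 0.893 CPM without and 0.621, 0.435 and 0.477 CPM with dox (-1.0, SE 0.42, edgeR adjusted p = 0.0787). Cxcl1 had 1.26, 1.16 and 0.940 CPM without and 0.466, 0.739 and 0.358 CPM with dox (-1.11, SE 0.449, edgeR adjusted p = 0.0696), and Ccl7 had 2.04, 3.22 and 3.01 CPM without and 1.79, 0.652 and 1.63 CPM with dox (-1.02, SE 0.412, edgeR adjusted p = 0.0695). The groups of these 3 genes did not overlap, beside the 55.3% of all genes, and the adjusted p-values missed the threshold. Ccl7 passed it with DESeq2 (-1.03, adjusted p = 0.0444), and with all groups of the table in 1 fit edgeR called Cxcl1 (-1.12, adjusted p = 0.00962) and Ccl7 (-1.02, adjusted p = 0.0222), so 5 members instead of 3. Cxcl12 was 36.1, 38 and 36.9 CPM without and 38.7, 33.0 and 40.7 CPM with dox (0.01, SE 0.113, edgeR adjusted p = 0.957). Ccl2 varied most with dox, at 0.0777, 0.261 and 0.994 CPM, and overlapped the 0.447 to 0.611 CPM without it (-0.26, SE 0.767, edgeR adjusted p = 0.804). The calls were 3 lower and 0 higher of 8, beside 8.80% lower and 7.32% higher of 13628 genes, with medians of -1.07 for the members and -0.00109 for all genes. Myotube markers summed to 17630 to 20800 CPM without and 12090 to 14090 CPM with dox, and immediate-early genes to 218.7 to 385.6 and 163.1 to 172.8 CPM. Proliferation markers summed to 180.6 to 212.6 CPM without and 352.5 to 419.8 CPM with dox (1 of 4 called higher), and leukocyte markers to 1.88 to 2.63 and 4.85 to 8.0 CPM (2 of 3 tested called higher). Called lower were 2 of 8 myotube markers, 3 of 8 immediate-early genes, 1 of 4 myoblast identity markers and the 1 tested adipocyte marker (-1.94). Their part was not tested.

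The dox effect differed between 48 h and 120 h for 5 of the 8 members, 4 of them lower at 120 h, beside 5.88% of 14734 genes called lower and 7.18% called higher. The difference of the log2 effects was -2.61 for Cxcl1 (SE 0.411, edgeR interaction test, adjusted p = 0.000276), -2.63 for Cxcl5 (SE 0.341, adjusted p = 5.45e-05) and -1.52 for Cxcl12 (SE 0.131, adjusted p = 1.17e-06). That of Csf1 was -1.58 (SE 0.117, edgeR adjusted p = 3.04e-07), and that of Il6 was 1.63 (SE 0.443, edgeR adjusted p = 0.0116), since Il6 was 8.57-fold lower at 48 h and 2.73-fold lower at 120 h. For Lif the effects differed by 0.31 (edgeR adjusted p = 0.354), for Ccl7 by -0.70 and for Ccl2 by -0.94. Without 120 h dox replicate 3 the Ccl2 difference was -2.35 with an adjusted p of 0.0495. In the same comparison 4 of 4 proliferation and 3 of 8 myotube markers and 1 of 4 tested leukocyte markers were called higher, and 1 myotube marker, 1 of 4 myoblast identity markers, the 1 tested adipocyte marker and 2 of 8 immediate-early genes lower. The part of these markers was not tested.

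Without dox, the 5 chemokines were lower at 24 h of differentiation than at 0 h in growth medium. The paper seeded more cells for differentiation than for the undifferentiated condition, so medium and cell density cannot be told apart here. From 0 h to 24 h Ccl2 fell 21.9-fold (log2 -4.45, SE 0.234, edgeR adjusted p = 7.48e-10), from 9.08 to 12.7 CPM down to 0.368 to 0.687 CPM. Cxcl1 fell 8.5-fold (-3.09, SE 0.154, adjusted p = 4.26e-10), Ccl7 6.63-fold (-2.73, SE 0.236, adjusted p = 1.34e-07), Cxcl5 5.16-fold (-2.37, SE 0.0996, adjusted p = 7.35e-11) and Cxcl12 4.06-fold (-2.02, SE 0.0633, adjusted p = 4.49e-12). The 2 cytokines tested gave no call over this step, with Lif at -0.02 (SE 0.228, edgeR adjusted p = 0.932) and Csf1 at 0.05 (SE 0.0579, edgeR adjusted p = 0.492). Il6 had too few counts to be tested. Thus 5 of 7 tested members were lower and 0 higher, beside 16.6% lower and 9.49% higher of 13632 genes, and the medians were -2.37 for the members and 0.0138 for all genes. Over this step 4 of 4 proliferation markers were called lower, from 2057 to 2072 CPM summed to 541.5 to 584.3 CPM, and 6 of 6 tested myotube markers higher. Of 8 immediate-early genes 1 was called higher and 2 lower. Of 4 myoblast identity markers 1 was called lower, as was 1 of 2 tested leukocyte markers. Their part was not tested.

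From 24 h to 48 h, where the time step is also the step between tables, the cytokines and chemokines moved in both directions. Il6 rose 7.48-fold (log2 2.90, SE 0.306, edgeR adjusted p = 1.41e-06), Lif 4.46-fold (2.16, SE 0.169, adjusted p = 6.94e-08) and Ccl7 3.4-fold (1.77, SE 0.254, adjusted p = 2.76e-05). Csf1 fell 3.58-fold (-1.84, SE 0.0616, edgeR adjusted p = 9.78e-12). Cxcl12 differed by 0.89, Cxcl1 by -0.92 and Cxcl5 by -0.81, all with edgeR adjusted p under 0.05 and under 2-fold, and without 24 h replicate 1 or 48 h replicate 1 Cxcl1 came to -1.10 or -1.12 and was called. The calls were 3 higher and 1 lower of 8, beside 19.3% and 11.1% of 14017 genes, with medians of 0.586 and -0.0204, and Ccl2 differed by 0.28 (edgeR adjusted p = 0.601). All 8 myotube markers were called higher and 0 of 4 proliferation markers were called. Immediate-early genes, 4 of 8 called higher and 2 lower, summed to 615.2 to 638.6 CPM at 24 h and 1139 to 1213 CPM at 48 h, and 3 of 4 myoblast identity markers were called higher, from 368.1 to 395.2 CPM summed to 2248 to 2452 CPM. Their part was not tested.

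From 48 h to 120 h without dox, 1 of the 8 members was called, beside 18.1% lower and 11.7% higher of 13786 genes. Cxcl5 fell 6.25-fold (log2 -2.64, SE 0.231, edgeR adjusted p = 1.2e-05), from 5.63 to 8.04 CPM down to 0.893 to 1.12 CPM. Csf1 differed by 0.80 (SE 0.0847, edgeR adjusted p = 3.9e-05), Cxcl1 by -0.84 (SE 0.292, adjusted p = 0.0292) and Cxcl12 by -0.45 (SE 0.0935, adjusted p = 0.00213), each under 2-fold. Lif stood at 10.9 to 15.1 CPM at 120 h and 11.6 to 12.8 CPM at 48 h, and Il6 at 2.46 to 2.87 and 2.34 to 3.00 CPM, in overlapping groups. Ccl2 differed by -0.06, Ccl7 by 0.25, Lif by 0.19 and Il6 by 0.05, without a call. The median was -0.00464 over the members and -0.0275 over all genes. The proliferation markers, 4 of 4 of them called lower, summed to 858.4 to 873.7 CPM at 48 h and 180.6 to 212.6 CPM at 120 h. Immediate-early genes, 4 of 8 called lower and 1 higher, summed to 1139 to 1213 and 218.7 to 385.6 CPM, and 2 of 4 myoblast identity markers were called lower. Of 8 myotube markers 1 was called higher and 1 lower, and of 3 tested leukocyte markers 1 was called higher and 1 lower. Their part was not tested.

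The 120 h fractions of the iMyoD1 line had higher levels of Cxcl1, Cxcl5 and Cxcl12 than the whole cultures of the same time and gave no call among the members. Without dox, Cxcl5 was 37.8, 34.3 and 32.6 CPM in the myoblast-enriched fraction, and 24.2, 9.91 and 20.3 CPM in the myotube-enriched fraction. Cxcl1 was 16.9, 20.4 and 29.5 CPM in the former and 13.4, 5.10 and 16.3 CPM in the latter, and Cxcl12 was 166.9, 152 and 168.2 CPM and 146.8, 94.7 and 116.2 CPM. The myotube-enriched libraries were the lower ones in each, without overlap. The log2 differences of myotube- against myoblast-enriched libraries were -0.93 for Cxcl5 (SE 0.302), -0.93 for Cxcl1 (SE 0.408) and -0.43 for Cxcl12 (SE 0.186), with edgeR adjusted p-values of 0.198, 0.316 and 0.309. Ccl7 was 6.47, 6.58 and 6.43 CPM against 3.26, 1.75 and 3.07 CPM, a difference of -1.26 (SE 0.293, edgeR adjusted p = 0.107). Il6 was 2.02, 1.89 and 2.27 CPM against 1.19, 0.490 and 0.734 CPM, a difference of -1.35 (SE 0.388, edgeR adjusted p = 0.16). Ccl7 was called with DESeq2 (-1.25, adjusted p = 0.00423). None of the 8 was called by edgeR, beside 0.0143% of 14023 genes called lower and 0.570% called higher, and 6 of the 8 had groups that did not overlap, as had 22.9% of all genes tested. For Ccl2, Lif and Csf1 the differences were -0.72, 0.44 and -0.51 (edgeR adjusted p = 0.358, 0.59 and 0.413). The medians were -0.827 and -0.00285. At an unadjusted p under 0.05, edgeR counted 4 of the 8, beside 16.1% of all genes tested. Myotube markers, 2 of 8 called higher, summed to 6699 to 10650 CPM in the myoblast- and 15130 to 24430 CPM in the myotube-enriched libraries, and no gene of the other 6 marker lists was called. Their part was not tested.

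With dox, the myoblast-enriched fraction held 20.5 and 15.6 CPM of Cxcl5 (log2 -0.95, SE 0.177, edgeR adjusted p = 0.0347, under 2-fold). It held 11.45 and 10.3 CPM of Cxcl1 (-1.03, SE 0.26, edgeR adjusted p = 0.0697) and 0.674 and 0.845 CPM of Il6 (-1.42, SE 0.335, edgeR adjusted p = 0.0587). Lif was 4.14 and 3.25 CPM with and 5.36, 7.56 and 8.997 CPM without dox (-0.99, SE 0.292, edgeR adjusted p = 0.105). Ccl2, Ccl7, Cxcl12 and Csf1 differed by 0.74, -0.61, -0.23 and -0.32 (edgeR adjusted p = 0.404, 0.138, 0.335 and 0.298). The groups of 7 members, and of 40.6% of all genes tested, did not overlap. None of the 8 was called, beside 1.82% lower and 1.21% higher of 14249 genes, and 5 of the 8 had an unadjusted p under 0.05 by edgeR, beside 22.3% of all genes tested. DESeq2 called Cxcl1 (adjusted p = 0.00546) and Il6 (-1.43, adjusted p = 0.0223). With the replicate number as a block, edgeR called Cxcl1 (-1.18, adjusted p = 0.00295), Il6 (-1.45, adjusted p = 0.0131) and Lif (-1.17, adjusted p = 0.00712). Without no dox replicate 1, edgeR called Cxcl1 (-1.20, adjusted p = 0.0433). The medians were -0.782 for the members and -0.00631 for all genes. Myotube markers summed to 6699 to 10650 CPM without and 5905 to 5984 CPM with dox, with 1 of 8 called lower, no gene of the other 6 marker lists was called, and their part was not tested.

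In the myotube-enriched fraction dox libraries overlapped no dox libraries for all 8 members, and only 2.78% of all genes tested had groups that did not overlap. Lif was 6.37, 7.90 and 4.29 CPM with and 12.01, 5.06 and 12.5 CPM without dox. The log2 fold changes ran from -0.65 (Lif) to 0.57 (Ccl7) with edgeR adjusted p-values of 0.998 to 0.999, none with an unadjusted p under 0.05. Those between were -0.38 for Il6, -0.02 for Cxcl1, 0.02 for Ccl2, 0.11 for Cxcl5, 0.18 for Cxcl12 and 0.20 for Csf1. This comparison called 0% of 14112 genes in either direction by edgeR, with 79 genes at an unadjusted p under 0.05 and 1 call by DESeq2. The medians were 0.0645 and 0.0365. The dox effects of the 2 fractions differed by -0.76 for Ccl2, 0.31 for Lif, 0.39 for Cxcl12, 0.50 for Csf1, 0.99 for Cxcl1, 1.03 for Il6, 1.04 for Cxcl5 and 1.16 for Ccl7, with no call, where 0% of 15008 genes were called, 218 had an unadjusted p under 0.05 (1 of them a member), and DESeq2 called 2 genes. Dox replicate 3 of this fraction stood apart from the others by its markers: the myotube markers summed to 5934 CPM in it and to 18220 and 23200 CPM in dox replicates 1 and 2, beside 5905 to 10650 CPM in the myoblast-enriched libraries. It also had the highest Cxcl12 (197.5 CPM, with 99.5 and 101.7 CPM in the others), Ccl7 (5.19 CPM) and Csf1 (210.7 CPM) of its group. Its Cxcl1 (13.7 CPM), Cxcl5 (22.5 CPM) and Ccl2 (0.846 CPM) were the highest of the group too, while its Il6 and Lif were not. Without dox replicate 3 the comparison again called 0 of the 8 members. Dox replicate 1 had the highest leukocyte marker sum of all libraries (17.7 CPM). The part of these shifts in the values was not tested.

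Set beside the whole cultures, which stood in another table and were not separated on the filter, the no dox myoblast- and myotube-enriched means were 34.0 and 17.7 times the whole-culture mean for Cxcl5, 19.8 and 10.3 times for Cxcl1 and 4.39 and 3.22 times for Cxcl12. With dox the ratios were 35.2 and 37.7 for Cxcl5, 20.9 and 21.6 for Cxcl1 and 3.68 and 3.55 for Cxcl12. No fraction library overlapped a whole-culture library of these 3 genes. The share of all genes that separate in this way was not computed, so this is not read as a trait of the members. Csf1 was at 1.06 and 0.734 times the whole culture without and 2.02 and 1.98 times with dox, and Lif at 0.536 and 0.722 without and 1.14 and 1.9 with dox. Il6 was at 0.787 and 0.307 times the whole culture without dox, with no overlap, and at 0.79 and 0.632 times with dox. Ccl7 was at 2.36 and 0.978 without and 3.12 and 2.88 with dox, and Ccl2 at 1.95 and 1.16 without and 3.93 and 1.35 with dox, where 3 of the 4 pairs of groups of Ccl2 overlapped. The immediate-early genes summed to 1186 to 1697 CPM in myoblast-enriched and 703.4 to 1332 CPM in myotube-enriched no dox libraries, and to 218.7 to 385.6 CPM in the whole cultures. Fraction, handling and table cannot be told apart in these ratios, so no test was made of them.

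**Figure D3:**
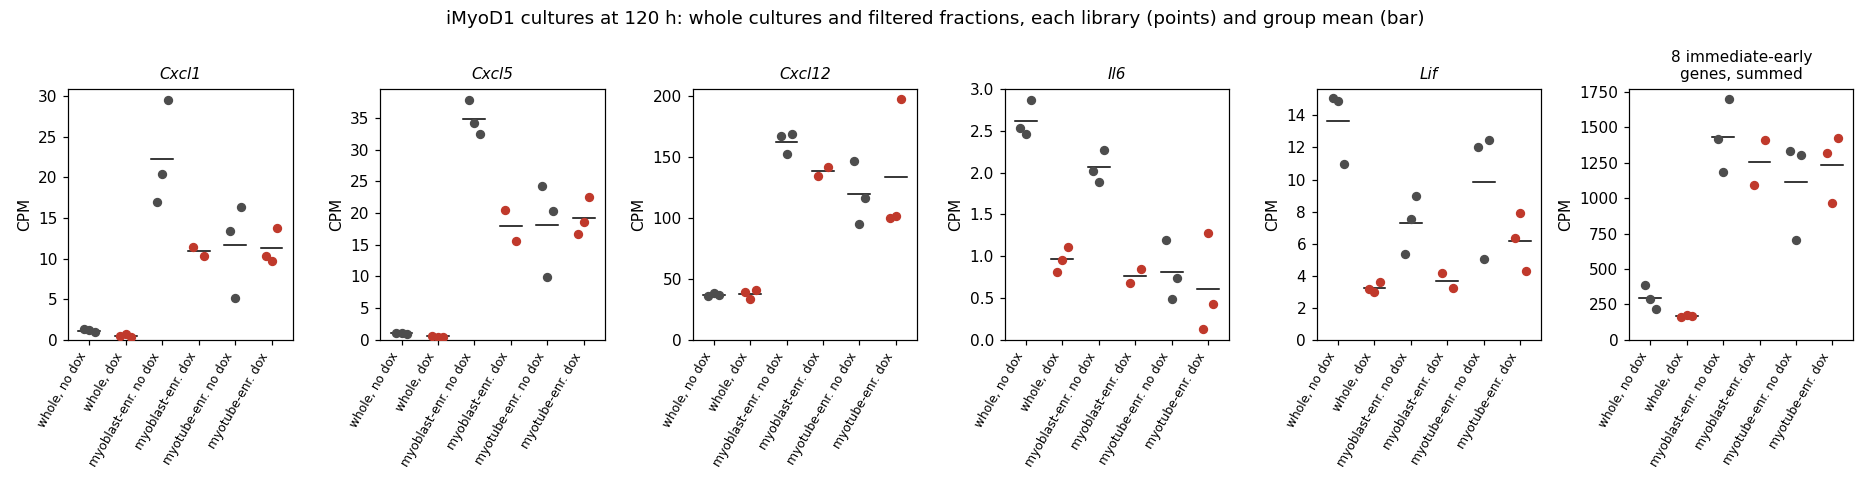
Levels (CPM, linear axes from 0) of Cxcl1, Cxcl5, Cxcl12, Il6 and Lif in whole cultures and both fractions at 120 h, with dox (red) and without (gray; points are libraries, bars group means), and the summed level of 8 immediate-early genes. Every fraction library lies above every whole-culture library for Cxcl1, Cxcl5, Cxcl12 and the immediate-early sum, and the share of all genes that separate was not computed.

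In the iCdh23 line, which carries the inducible atypical cadherin Cdh23, 7 of the 8 members were lower with dox. The no dox libraries themselves were far apart, with replicate 3 lowest for every chemokine. Lif was 4.24, 6.70 and 12.1 CPM without and 0.790, 0.549 and 0.749 CPM with dox. Il6 was 0.839, 1.91 and 2.22 CPM without and 0.208, 0.162 and 0.0357 CPM with dox, and Csf1 was 258.9, 211.4 and 159.1 CPM without and 127.1, 82.7 and 95.7 CPM with dox. All 3 cytokines were without overlap, as were 71.2% of all genes tested. Lif fell by 3.47 (SE 0.433, edgeR adjusted p = 0.000315), Il6 by 3.60 (SE 0.58, adjusted p = 0.00115) and Csf1 by 1.05 (SE 0.215, adjusted p = 0.0038). The Csf1 call was lost without no dox replicate 1 (-0.88), dox replicate 2 (-0.91) or dox replicate 3 (-1.0) and when scaled by library size alone (-0.72).

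Cxcl5 in iCdh23 cells was 67.4, 35.2 and 9.997 CPM without and 7.32, 2.10 and 3.32 CPM with dox. Cxcl1 was 16.1, 9.09 and 3.20 CPM without and 1.83, 1.00 and 1.14 CPM with dox, and Ccl7 was 5.26, 3.21 and 0.513 CPM without and 0.416, 0.323 and 0.357 CPM with dox. Even replicate 3 without dox was above the dox libraries. Cxcl5 fell by 3.16 (SE 0.725, edgeR adjusted p = 0.00636), Ccl7 by 3.02 (SE 0.762, adjusted p = 0.00975) and Cxcl1 by 2.85 (SE 0.574, adjusted p = 0.00344). Without no dox replicate 1, the highest of its group, these became -2.44, -2.34 and -2.23, and without dox replicate 1 Cxcl5 became -3.79, all still called. Cxcl12, at 213.7, 225.5 and 102.4 CPM without and 84.3, 71.7 and 85.4 CPM with dox, fell by 1.17 (SE 0.274, edgeR adjusted p = 0.00708), a call that was lost without no dox replicate 2 (-0.99) and with library size alone (-0.84). Ccl2 overlapped (2.03, 1.15 and 0.214 CPM against 0.416, 0.517 and 0.927 CPM, -0.85, SE 0.684, edgeR adjusted p = 0.305) and was called without no dox replicate 3 (-1.36, adjusted p = 0.0188). Leaving out each library in turn gave Ccl2 values from -1.36 to -0.12. The 7 calls stood beside 17.0% of 14227 genes lower and 13.0% higher, and the median was -2.94 over the members and -0.00246 over all genes. All 8 myotube markers were called lower, from a sum of 5842 to 10350 CPM to 40.8 to 142 CPM, as were 4 of 4 proliferation markers, from 547.9 to 838.4 CPM to 10.99 to 24.22 CPM. Immediate-early genes summed to 952.7 to 994 CPM without and 651.2 to 808 CPM with dox (1 of 8 called higher and 2 lower). The 4 markers of myoblast identity were also all called lower, from 1595 to 1800 CPM summed to 287.5 to 350.3 CPM, and so was the 1 tested of 4 adipocyte markers (-2.43). Their part in the results was not tested.

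In the iMcam line, which carries the inducible immunoglobulin-family adhesion molecule Mcam, Il6 and Lif alone were called. Lif was 6.94, 7.88 and 24.96 CPM without and 1.03, 1.28 and 2.71 CPM with dox and fell 7.77-fold (log2 -2.96, SE 0.595, edgeR adjusted p = 0.00537), or 4.35-fold (-2.12) without no dox replicate 3. Il6 was 1.18, 0.668 and 3.00 CPM without dox and had 1, 0 and 3 counts in the dox libraries. Counted against a floor of 3 counts per library, it was at least 11.1-fold lower with dox (edgeR adjusted p = 0.00456), and at least 6.31-fold lower without no dox replicate 3, the highest of its group. These were 2 of 8 members, beside 9.85% lower and 6.99% higher of 13730 genes, and the only 2 whose groups did not overlap, as 60.5% of all genes tested did not.

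The iMcam chemokines varied widely between no dox libraries. Cxcl5 was 106.9, 65.6 and 7.39 CPM without and 59.6, 32.7 and 15.2 CPM with dox (-0.72, SE 0.823, edgeR adjusted p = 0.489). Its value ran from -1.31 to -0.00 when each library was left out in turn. Cxcl1 was 26.4, 12.8 and 2.89 CPM without and 18.8, 11.3 and 6.06 CPM with dox (-0.19, SE 0.695, edgeR adjusted p = 0.834). In both groups the level was highest in replicate 1 and lowest in replicate 3. Ccl7 was 11.8, 7.08 and 3.15 CPM without and 4.66, 3.58 and 3.17 CPM with dox (-0.93, SE 0.437, edgeR adjusted p = 0.116) and was called without no dox replicate 3 (-1.30, adjusted p = 0.00593). Cxcl12 (-0.10, SE 0.225, edgeR adjusted p = 0.731) and Csf1 (-0.32, SE 0.173, edgeR adjusted p = 0.166) gave no call, nor did Ccl2 (-0.43). With the replicate number as a block, Csf1 (-0.32, edgeR adjusted p = 0.0111) and Ccl7 (-0.80, edgeR adjusted p = 0.048) passed the p threshold without reaching 2-fold. The median was -0.577 over the members and 0.0195 over all genes. All 8 myotube markers were called lower, from 4257 to 10530 CPM summed to 561 to 1777 CPM, as were 4 of 4 proliferation markers, from 526.7 to 656 CPM to 47.2 to 98.3 CPM, and 3 of 8 immediate-early genes, whose sum was 959.1 to 1205 CPM without and 567.6 to 673.6 CPM with dox. Of 4 myoblast identity markers 3 were called lower, with sums of 1228 to 1906 CPM without and 434.5 to 689.8 CPM with dox. Their part was not tested.

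The dox effects of the 2 adhesion lines were compared with an interaction test, which called none of the 8 members, beside 5.47% of 14552 genes lower and 1.02% higher in iCdh23. The differences were -2.65 for Cxcl1 (SE 1.03, edgeR adjusted p = 0.133), -2.43 for Cxcl5 (SE 1.23, adjusted p = 0.254), -2.08 for Ccl7 (SE 0.938, adjusted p = 0.193) and -1.05 for Cxcl12 (SE 0.387, adjusted p = 0.111). For Csf1 and Ccl2 they were -0.71 and -0.41 (edgeR adjusted p = 0.161 and 0.832). At an unadjusted p under 0.05, edgeR counted 4 of the 8, beside 24.8% of all genes tested, and the medians were -0.881 and -0.0167. With the replicate number as a block, edgeR called Cxcl1 (-2.69, adjusted p = 0.00294) and Cxcl5 (-2.48, adjusted p = 0.022). Without iCdh23 no dox replicate 3, Ccl7 (-2.59, adjusted p = 0.0273) and Cxcl12 (-1.33, adjusted p = 0.0136) were called by edgeR. Over all fits that left out 1 library, the differences ran from -3.49 to -2.03 for Cxcl1 and -3.15 to -1.71 for Cxcl5. They ran from -2.60 to -1.39 for Ccl7 and -1.33 to -0.82 for Cxcl12. Leaving out replicate 3 of all 4 groups called Cxcl1 (-2.83), Cxcl5 (-2.61), Ccl7 (-2.34) and Cxcl12 (-1.18), so 4 members instead of 0. For Lif the effects differed by -0.49 (edgeR adjusted p = 0.778). For Il6 no size is given, since the iMcam dox libraries held at most 3 counts (edgeR adjusted p = 0.704). All 8 myotube and all 4 proliferation markers, 1 of 4 myoblast identity markers and the 1 tested adipocyte marker were called lower in this comparison, and their part was not tested.

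**Figure D4:**
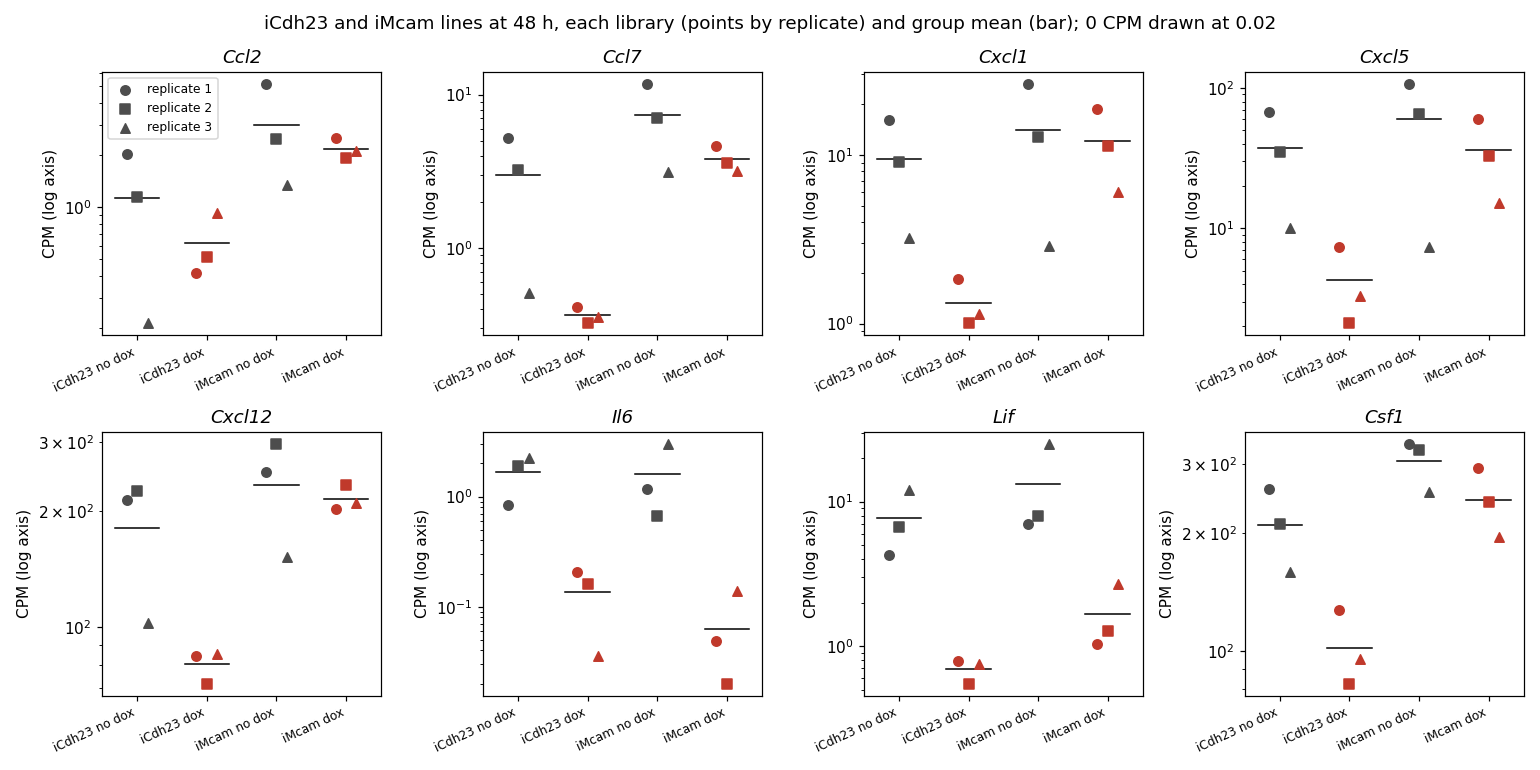
Levels (CPM, log axis) of the 8 genes in iCdh23 and iMcam libraries at 48 h, no dox (gray) and dox (red), with the symbol giving the replicate number and bars the group means. Among the libraries without dox, Cxcl5 is lowest in replicate 3, at 9.997 CPM in iCdh23 and 7.39 CPM in iMcam.

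Over the 8 dox comparisons, Lif was called lower in 4 and Il6 in 4 of the 6 in which it was tested, and neither was called higher in any. Cxcl1 and Cxcl5 were each called lower in 3 and higher in 1, Cxcl12 lower in 2 and higher in 1, Ccl7 and Csf1 lower in 3 and Ccl2 lower in 2. The range between the highest and lowest group mean was 123-fold for Cxcl5, 67.1-fold for Cxcl1, 52.2-fold for Ccl2, 44.3-fold for Ccl7, 19.6-fold for Lif, 12-fold for Cxcl12 and 5.39-fold for Csf1. Most neighbors in the order of the 16 group means overlapped. Of the 15 steps from 1 group to the next, 7 were free of overlap for Cxcl12, 5 for Cxcl5, 3 for Cxcl1 and for Ccl7, 2 for Lif and for Csf1, and 1 for Ccl2 and for Il6.

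The pattern over groups was compared between genes by Pearson's r of log2(mean CPM + 1) over the 16 group means, searching the 12086 genes whose mean reached 5 CPM in any group. These points share lines, tables and libraries, so r is given as a description. Cxcl1 and Cxcl5 were close to each other (r = 0.935), and beside it the closest genes were Bmp4 (0.941) and Cdhr1 (0.906) for Cxcl1 and Zfp503 (0.933) and Ephb6 (0.919) for Cxcl5. Ccl2 was closest to Asap1 (0.925), Ifitm1 (0.905) and Krt13 (0.892), and its neighbor Ccl7 to Fgf7 (0.942), Cyp1b1 (0.907) and Ccn1 (0.9), while r between Ccl2 and Ccl7 was 0.48. Cxcl12 was closest to Mxra8 (0.958), Cnksr3 (0.955) and Gas1 (0.936). Il6 and Lif correlated at r = 0.86, with Hey1 (0.949), Fam83a (0.927) and Adgrf4 (0.926) closest to Il6 and Cbfb (0.949), Sox11 (0.942) and Otud1 (0.933) closest to Lif. For Csf1, r was 0.925 with Pcdh19 and 0.849 with Cpne8.

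The receptors divided by ligand. Of the receptors of the monocyte and neutrophil chemokines, Ccr1, Ccr2, Ccr3, Cxcr1 and Cxcr2 reached at most 3 counts in any library. The atypical receptors Ackr1, Ackr2 and Ackr4, which take up chemokines without classical signaling, stayed at group means of 2.16 CPM or less. Both receptors of Cxcl12 were present, with group means of 2.23 to 79.3 CPM for Cxcr4 and 3.29 to 50.4 CPM for Ackr3. Il6st, the shared subunit for Il6 and Lif, was at 145 to 630 CPM, Lifr at 7.45 to 221 CPM, Il6ra at 4.12 to 33.0 CPM and Csf1r at 0.0983 to 5.62 CPM. Their transducers Jak1 (152 to 279 CPM), Jak2 (31.2 to 146 CPM), Tyk2 (17.7 to 50.7 CPM) and Stat3 (66.5 to 322 CPM) were present throughout.

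Ackr3 was called lower with dox in 5 comparisons, namely 48 h (log2 -1.10, SE 0.101, edgeR adjusted p = 5.78e-06), 120 h (-1.01, SE 0.115, adjusted p = 0.000132), the myoblast-enriched fraction (-1.66, SE 0.175, adjusted p = 0.0118), iCdh23 (-2.99, SE 0.251, adjusted p = 4.81e-05) and iMcam (-2.34, SE 0.151, adjusted p = 0.000139). Cxcr4 was called lower in iCdh23 (-2.92, SE 0.355, edgeR adjusted p = 0.000281) and iMcam (-1.71, SE 0.17, edgeR adjusted p = 0.000385). Il6ra, which binds Il6, rose with dox in 3 of the 4 comparisons in which Il6 fell, at 48 h (2.23, SE 0.105, edgeR adjusted p = 6.67e-08), in iCdh23 (1.46, SE 0.125, adjusted p = 5.24e-05) and in iMcam (1.62, SE 0.254, adjusted p = 0.00196). Its 120 h value was 0.86 (SE 0.141, edgeR adjusted p = 0.00107), under 2-fold. Without dox, Cxcr4, Ackr3 and Lifr all fell from 0 h to 24 h (-1.76, -1.48 and -1.76) and rose from 24 h to 48 h (4.85, 3.10 and 3.42), and Il6st rose from 48 h to 120 h (1.91, SE 0.0838, edgeR adjusted p = 4.39e-07). For the counts of this and the next lists, the shares of all genes called lower and higher with dox were 1.36% and 2.91% at 0 h, 5.13% and 8.02% at 24 h, 8.46% and 5.93% at 48 h, 8.80% and 7.32% at 120 h, 1.82% and 1.21% in the myoblast-enriched fraction, 17.0% and 13.0% in iCdh23 and 9.85% and 6.99% in iMcam. Without dox they were 16.6% and 9.49% from 0 h to 24 h, 11.1% and 19.3% from 24 h to 48 h, and 18.1% and 11.7% from 48 h to 120 h. Of the 19 receptors and transducers listed, 9 to 12 could be tested in each comparison. With dox, 0 were called at 0 h and 24 h, 1 higher and 1 lower at 48 h, 1 lower at 120 h, 1 lower in the myoblast-enriched fraction and, in each adhesion line, 1 higher and 2 lower. The medians in the 8 dox comparisons were -0.0767 to 0.316, beside -0.00631 to 0.0365 over all genes. Without dox, 5 of 10 were lower from 0 h to 24 h, 4 of 11 higher and 1 lower from 24 h to 48 h, and 2 of 11 higher and 2 lower from 48 h to 120 h.

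**Figure D5:**
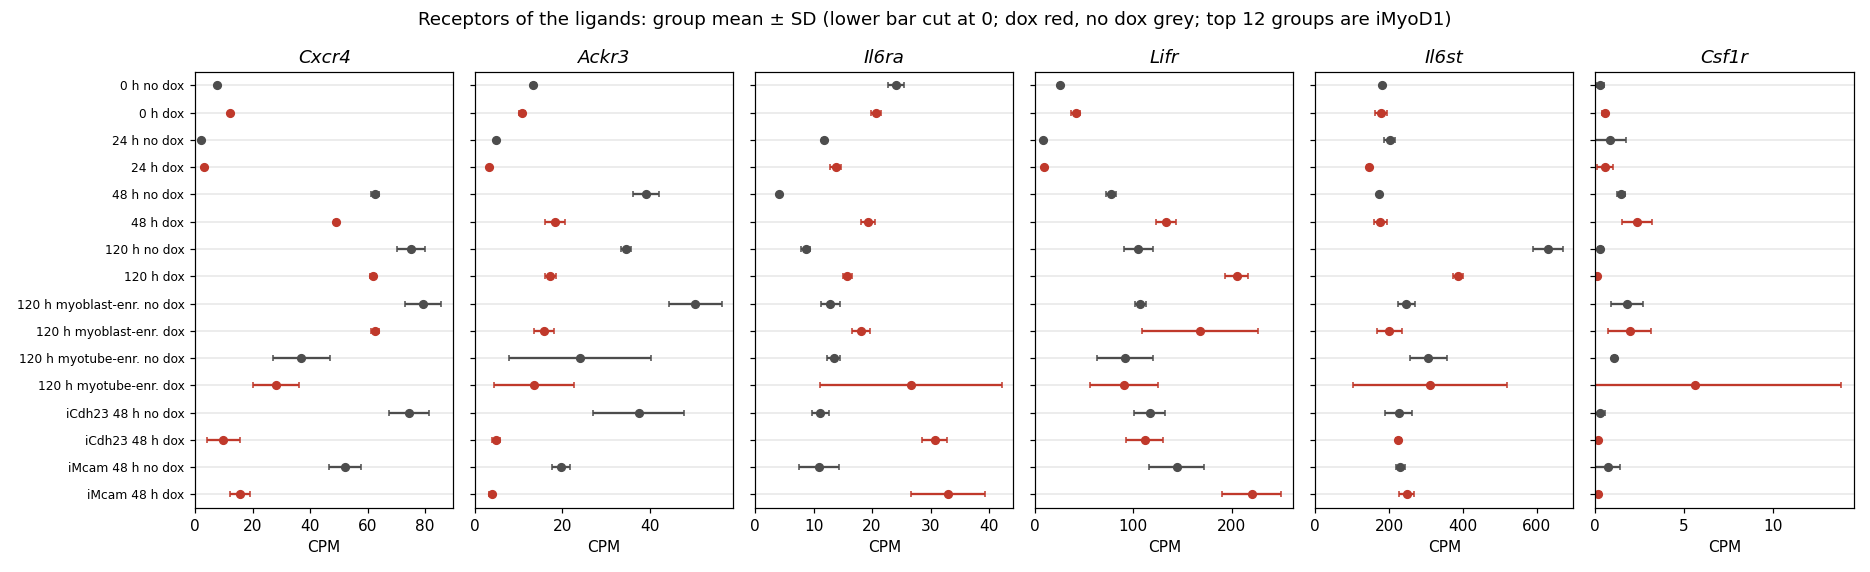
Group mean levels ± SD (CPM, linear axes) of Cxcr4, Ackr3, Il6ra, Lifr, Il6st and Csf1r in the 16 groups, dox red and no dox gray. The mean of Il6st stays between 145 and 630 CPM in every group, while Cxcr4 spans 2.23 to 79.3 CPM.

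Among 30 other chemokine ligands, 5 to 12 could be tested in any comparison. Ccl9 fell with dox at 0 h (-1.38, SE 0.299, edgeR adjusted p = 0.00243), the 1 call of 5 tested (median -0.451). At 24 h 0 of 5 were called (median 0.127), and in the myotube-enriched fraction 0 of 9 (median 0.459). Cxcl13, which attracts B cells, fell at 48 h (-2.40, SE 0.432, edgeR adjusted p = 0.000744), at 120 h (-1.98, SE 0.581, adjusted p = 0.0207), where it was the 1 call of 6, and in the myoblast-enriched fraction (-3.73, SE 0.576, adjusted p = 0.0215), where it was the 1 call of 11. At 48 h Cxcl14 also fell (-1.0, SE 0.197, edgeR adjusted p = 0.00136) and Ccl27a rose (2.62, SE 0.638, edgeR adjusted p = 0.00497), so 1 of 9 was higher and 2 lower with a median of -0.0991. The adhesion lines had 1 higher and 2 lower of 6 (iCdh23) and of 9 (iMcam), with Ccl27a higher and Cxcl14 lower in both and medians of -0.000435 and -0.596. Over time without dox, 1 of 6 was higher and 4 lower from 0 h to 24 h, 5 of 8 higher and 1 lower from 24 h to 48 h, and 2 of 7 lower from 48 h to 120 h, with medians of -1.26, 1.74 and -0.836. Cx3cl1, a membrane-tethered chemokine, went from 48.5 CPM at 0 h to 16.8 CPM at 24 h and 63.6 CPM at 48 h in group means.

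Among 16 other cytokines, 9 to 11 were tested. Il33, an alarmin of the interleukin-1 family, fell with dox at 0 h (-1.70, SE 0.109, edgeR adjusted p = 7.25e-08), as the 1 call of 10, at 24 h (-1.67, SE 0.3, edgeR adjusted p = 0.000412), in iCdh23 (-5.90, SE 0.287, edgeR adjusted p = 6.46e-06), from a mean of 39.2 to 0.660 CPM, and in iMcam (-1.36, SE 0.295, edgeR adjusted p = 0.00731). At 24 h 2 of 10 were lower, Il33 and Tslp (-1.14, SE 0.397, edgeR adjusted p = 0.0252), and 1 was higher. The higher one was Il11, another ligand that signals through Il6st (2.01, SE 0.29, edgeR adjusted p = 7.32e-05), which also rose in iMcam (1.66, SE 0.399, edgeR adjusted p = 0.0111). Il1b was 1.89 CPM without and 0.257 CPM with dox at 48 h in group means and fell by 2.90 (SE 0.296, edgeR adjusted p = 1.35e-05), the 1 call of 9. At 120 h 2 of 10 were lower and 1, Ctf1, higher (1.05, SE 0.155, edgeR adjusted p = 0.000582). In iCdh23, 7 of 11 were lower and 1 higher, beside 17.0% and 13.0% of all genes, with a median of -2.70, and Il34, a second ligand of Csf1r, fell there by 4.22 (SE 0.283, edgeR adjusted p = 1.85e-05) and in iMcam by 1.94 (SE 0.297, edgeR adjusted p = 0.00179). In iMcam 3 of 10 were lower and 1 higher, with a median of -0.635. In both fractions 0 of 11 were called, and the medians of the 6 iMyoD1 dox comparisons were -0.641 to -0.0281. From 0 h to 24 h 5 of 9 fell, from 24 h to 48 h 4 of 10 rose and from 48 h to 120 h 3 of 10 fell.

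Of 24 genes of the NF-kappaB pathway, C/EBP factors and their feedback, 21 or 22 were tested in each comparison. At 0 h none was called with dox, and at 24 h 1 was, Ikbke, a kinase of the IKK family (1.32, SE 0.134, edgeR adjusted p = 3.89e-06). Tnfaip3, the feedback inhibitor also known as A20, fell at 48 h (-1.27, SE 0.0893, edgeR adjusted p = 8.69e-07), at 120 h (-1.13, SE 0.126, adjusted p = 0.000113), in iCdh23 (-2.19, SE 0.224, adjusted p = 0.000121) and in iMcam (-1.50, SE 0.237, adjusted p = 0.00199). At 48 h it was the 1 lower call beside 1 higher, Ikbke (1.53, SE 0.107, edgeR adjusted p = 8.08e-07). At 120 h 4 of 21 were lower and 1 higher, among them Socs3, a feedback inhibitor of gp130 signaling (-1.48, SE 0.23, edgeR adjusted p = 0.000782), and Cebpb (-1.34, SE 0.259, edgeR adjusted p = 0.0026). In iCdh23 3 of 22 were lower and 1 higher, in iMcam 1 and 1, and in both fractions 0, and the medians of the 8 dox comparisons were -0.369 to 0.113. Without dox, 10 of 22 fell and 1 rose from 0 h to 24 h (median -0.795, with 0.0138 over all genes), beside 16.6% and 9.49% of all genes. From 24 h to 48 h 6 of 21 rose (median 0.348), beside 19.3% of all genes, and from 48 h to 120 h 6 of 21 fell (median -0.455), beside 18.1%, including Cebpb from 112.4 to 8.53 CPM.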

How the data were processed

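Poly(A) RNA of 47 libraries was sequenced in pairs of reads. The authors deposited 3 tables of estimated counts per transcript, made with Salmon in the nf-core/rnaseq pipeline, and the submitters' processing notes name the build mm10. Of the deposited values 33.25% were not whole numbers. Counts of 109617 transcripts were summed to 45706 genes and rounded. Genes were tested with edgeR 4.0.16 in R 4.3.3 (filterByExpr, TMM factors, glmQLFit and glmQLFTest, group as the only term, Benjamini-Hochberg adjustment over all genes tested). Only the groups compared entered a fit. Standard errors were derived from the quasi-likelihood F statistic. DESeq2 1.42.0 was an alternative, beside RLE factors, library size alone, no low-count filter, a fit of all groups of a table, a replicate block and leaving out each library. The last setting leaves 1 myoblast-enriched dox library, which is then assumed to vary like the other group. The statistics were tested on simulated data for some of the comparisons. The planted changes were larger than 2-fold and lay in no gene as low as Il6, so smaller changes and lower levels were not covered. Tables and drawings were made with Python 3.11.15, pandas 2.3.3, numpy 2.4.6 and matplotlib 3.10.9. Gene positions and lengths came from the GENCODE annotation of GRCm38, in which 98.72% of transcripts had a length, and promoters from RefSeq.

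Samples were grouped by their titles. The members, gene lists and comparisons were chosen with earlier results of these data known. The 8 members are given in every comparison. Of the lists (other chemokine ligands, other cytokines, receptors and transducers, and genes of NF-kappaB and C/EBP with their feedback) up to 4 called genes with the largest change per comparison could be named, receptors were named whether called or not, and for each member the 3 genes with the highest r were named, apart from items that are not reported here. Markers of myotubes, myoblast identity (4 genes, 288 to 3320 CPM summed), proliferation (11.0 to 2070 CPM summed), leukocytes, endothelium, adipocytes and immediate-early response were summed per library. No sequence table gave proteins, so none are shown.

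With 15066338 to 50950674 counts per library, the floor of 3 counts covers counting error only. Over 46 pairs of replicates the counts differed by a chi-square of 2.95 to 377 per gene, so none was counted as a copy of another. The labels call replicates biological but do not say that numbers mark a shared culture or day. Deviations of same-numbered libraries correlated above 0.1 in every one of 3 pairs for the iMcam dox comparison (0.362, 0.227 and 0.419) and for the fractions without dox (0.413, 0.117 and 0.189), and in no other comparison with 3 pairs.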

Additional observations from a re-analysis of the deposited data

Results flagged for a closer look

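Each of these values is a difference between dox effects in 2 groups of the iMyoD1 line, chosen because the edgeR interaction test of the difference itself passed an adjusted p of 0.05 and 2-fold. Between 24 h and 0 h, the dox effect on Csf1 differed by -1.57 on the log2 scale. Mean Csf1 was 438.6 CPM without and 237.8 CPM with dox at 0 h, and 448.2 and 83.2 CPM at 24 h.

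Between 120 h and 48 h, the dox effect differed by -2.61 for Cxcl1, -2.63 for Cxcl5 and -1.52 for Cxcl12. These 3 genes were called higher with dox at 48 h and were not called at 120 h. The difference was -1.58 for Csf1, which was called lower at 120 h only, and 1.63 for Il6, which was called lower at both times. The 8 myotube markers summed to 14420 to 15760 CPM without and 5872 to 5957 CPM with dox at 48 h, and to 17630 to 20800 and 12090 to 14090 CPM at 120 h, and their part in these differences was not tested. At both times all groups held 3 libraries, a size at which an exact permutation test of a single gene cannot give a p below 0.1.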

How the results depend on the processing

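Apart from fits that left out a library, 619 member values kept direction and call, 7 lost and 15 gained a call, and 7 changed sign, all 7 uncalled and near 0. Of the counts of called members, 98 stayed within 1.5 times and 7 did not. These were 5 (3 in the report) at 120 h with all groups of the table in 1 fit, 2 with DESeq2, 2 with no low-count filter and 3 with the replicate block (0 in the report) in the myoblast-enriched fraction, 1 with DESeq2 and 1 with no filter (0) between fractions, and 2 with the replicate block (0) between iCdh23 and iMcam. The last became 4 without replicate 3 in every group, a setting chosen after seeing the data, as was library size alone. The sign changes gave -0.01 for Cxcl12 at 120 h with no filter, 0.03 for Cxcl1 in iMcam and -0.03 for Ccl2 in the 24 h against 0 h difference with the replicate block, and, with library size alone, 0.09 for Cxcl12 in iMcam, -0.09 for Csf1 from 0 h to 24 h, -0.02 for Il6 from 48 h to 120 h and 0.13 for Lif in the 24 h against 0 h difference. The cause was not tested.

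Leaving out 1 library gave 4 to 5 called members at 24 h, 5 to 6 at 48 h, 0 to 1 in the myoblast-enriched fraction, 6 to 8 in iCdh23, 2 to 3 in iMcam, 4 to 5 from 24 h to 48 h, 5 to 6 for 120 h against 48 h and, with the removal of all 4 replicates numbered 3, 0 to 4 for iCdh23 against iMcam. Uncalled values that changed sign ranged for Ccl2 from -1.65 to 0.24 at 120 h, -0.13 to 1.31 in the myoblast-enriched fraction, -0.80 to 0.22 in iMcam, -0.22 to 0.64 from 24 h to 48 h, -0.38 to 0.46 from 48 h to 120 h, -0.23 to 0.37 for 24 h against 0 h and -1.06 to 0.34 for iCdh23 against iMcam. For Lif they ranged from -0.00 to 0.48 at 24 h, -0.26 to 0.11 from 0 h to 24 h, -0.30 to 0.17 for 24 h against 0 h and -1.34 to 0.05 for iCdh23 against iMcam. In iMcam Cxcl1 ranged from -0.69 to 0.66 and Cxcl12 from -0.34 to 0.10, Cxcl12 at 120 h from -0.06 to 0.09, and Il6 from 48 h to 120 h from -0.03 to 0.16.

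The replicate block changed no call in iMcam or between the fractions. In comparisons where same-numbered libraries did not all correlate above 0.1, or with only 2 pairs (myoblast-enriched, r = 0.431 and 0.3), it called Cxcl1 (-1.18), Il6 (-1.45) and Lif (-1.17) in the myoblast-enriched fraction, Cxcl1 (-2.69) and Cxcl5 (-2.48) for iCdh23 against iMcam, and lost Ccl2 at 24 h (adjusted p = 0.0601). All 6 iCdh23 and all 6 iMcam libraries correlated best with their own number in the other group, as did 4 of 6 between fractions and 0 to 2 of 6 elsewhere. Library size alone moved the median of all genes by 0.11 at 0 h, 0.26 at 24 h, 0.14 at 48 h, 0.20 at 120 h, 0.33 in iCdh23, 0.19 in iMcam, -0.13 from 0 h to 24 h, 0.20 for 24 h against 0 h and 0.12 for iCdh23 against iMcam, and the share of calls that were higher from 61.0% to 80.5% at 24 h, 41.2% to 53.0% at 48 h, 45.4% to 63.1% at 120 h, 39.8% to 52.6% in the myoblast-enriched fraction, 43.4% to 61.3% in iCdh23, 41.5% to 56.5% in iMcam and 51.6% to 76.2% for 24 h against 0 h. DESeq2 called 256 genes higher and 450 lower in the myoblast-enriched fraction (172 and 260 with edgeR) and 399 and 61 between fractions (80 and 2). Il6 at 0 h and 24 h rested on few counts, and without the low-count filter its dox differences of -0.66 and -1.41 had edgeR adjusted p-values of 0.616 and 0.0983.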
